A study of Mus musculus with 4 samples.

Results

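Cyp17a1-rich spots were examined in sections of mouse ovary profiled by spatial transcriptomics, in which a frozen section lies on an array of barcoded spots and each spot collects the RNA of the few cells above it. Spots were chosen by their measured Cyp17a1 content: a member had at least 1000 unique transcript counts (UMIs) and lay in the top 8% of such spots by UMIs of Cyp17a1 per 10000 UMIs, pooled over all sections. The choice gave 331 of 4134 spots, out of 4191 spots with counts. The animals were CD-1 mice, an outbred stock, all female: 4 young ones aged 3 to 4 months and 4 aged ones of 15 to 16 months. The aged females had aged naturally, and no treatment or genetic change is named for either group. Each of the 4 capture areas carried a section of a young and a section of an aged ovary, so that 8 sections, 1 from each animal, are the replicates. Sections are numbered here by capture area. The stage of the oestrous cycle at death is not given in the sources used here.

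Theca cells surround the growing follicle outside its basement membrane, and interstitial gland cells, which derive largely from the theca of follicles that have died, lie between follicles. Both make androgens from cholesterol. The steroidogenic acute regulatory protein (Star) brings cholesterol to the inner mitochondrial membrane, Cyp11a1 cuts its side chain, Hsd3b1 forms progesterone, and Cyp17a1, with 17-hydroxylase and lyase activity, turns progestogens into androgens. Luteinising hormone acts through its receptor Lhcgr to drive this pathway. Granulosa cells inside the follicle turn the androgens into oestrogens with Cyp19a1 and send hedgehog ligands (Dhh, Ihh) to the theca, where Ptch1, Gli1 and Hhip are transcribed in response. After ovulation the follicle wall becomes the corpus luteum, which makes progesterone and, in mice, carries little Cyp17a1.

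Sections held 249 to 761 spots with at least 1000 UMIs, and the median spot of a section had 8949 to 28120 UMIs. A spot covers several cells, so that a higher share of a cell type in it and more RNA per cell of that type cannot be told apart here. The median Cyp17a1-rich spot had 16030 UMIs and the median other spot 18146. The side of each capture area that carried the young ovary was read from the labels, and nothing in the files shows whether an image was turned, which would swap young and aged in that area. Capture area 3 went against the others: 13 oocyte markers, summed over the whole section, stood at 571, 186 and 238 CPM in young sections 1, 2 and 4 and at 39.7, 42.3 and 33.4 CPM in aged sections 1, 2 and 4, but at 37.1 CPM in the section of area 3 labelled young and at 496 CPM in the one labelled aged. Sections 3 are named here as labelled, and results that use them are given also without capture area 3. Comparisons within a section do not depend on age. The 1358 of 2204 barcodes that occur in more than 1 capture area are array positions, not shared cells.

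Cyp17a1 lies on chromosome 19 at 46667165 to 46673172 (mm10, minus strand). The values in this paragraph chose the spots and are a description only. The lowest members had 7.44 and 7.44 Cyp17a1 UMIs per 10000 UMIs, the highest spots left out 7.42 and 7.41, the median member 11.6, the highest member 53.3 and the median spot left out 0.350. Of 17377 Cyp17a1 UMIs, 8712 (50.1%) lay in the Cyp17a1-rich spots. Cyp17a1 over whole sections stood at 271, 135, 75.6 and 414 CPM (counts per 1000000 UMIs of the summed spots) in young sections 1 to 4, and at 316, 10.9, 62.7 and 204 CPM in aged sections 1 to 4. Both ages thus held sections with high and with low Cyp17a1, and the lowest was aged section 2. Within the Cyp17a1-rich spots the level was 1299, 1022, 1085 and 1538 CPM in young sections 1 to 4 and 1297 and 1669 CPM in aged sections 1 and 4.

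**Figure D1:**
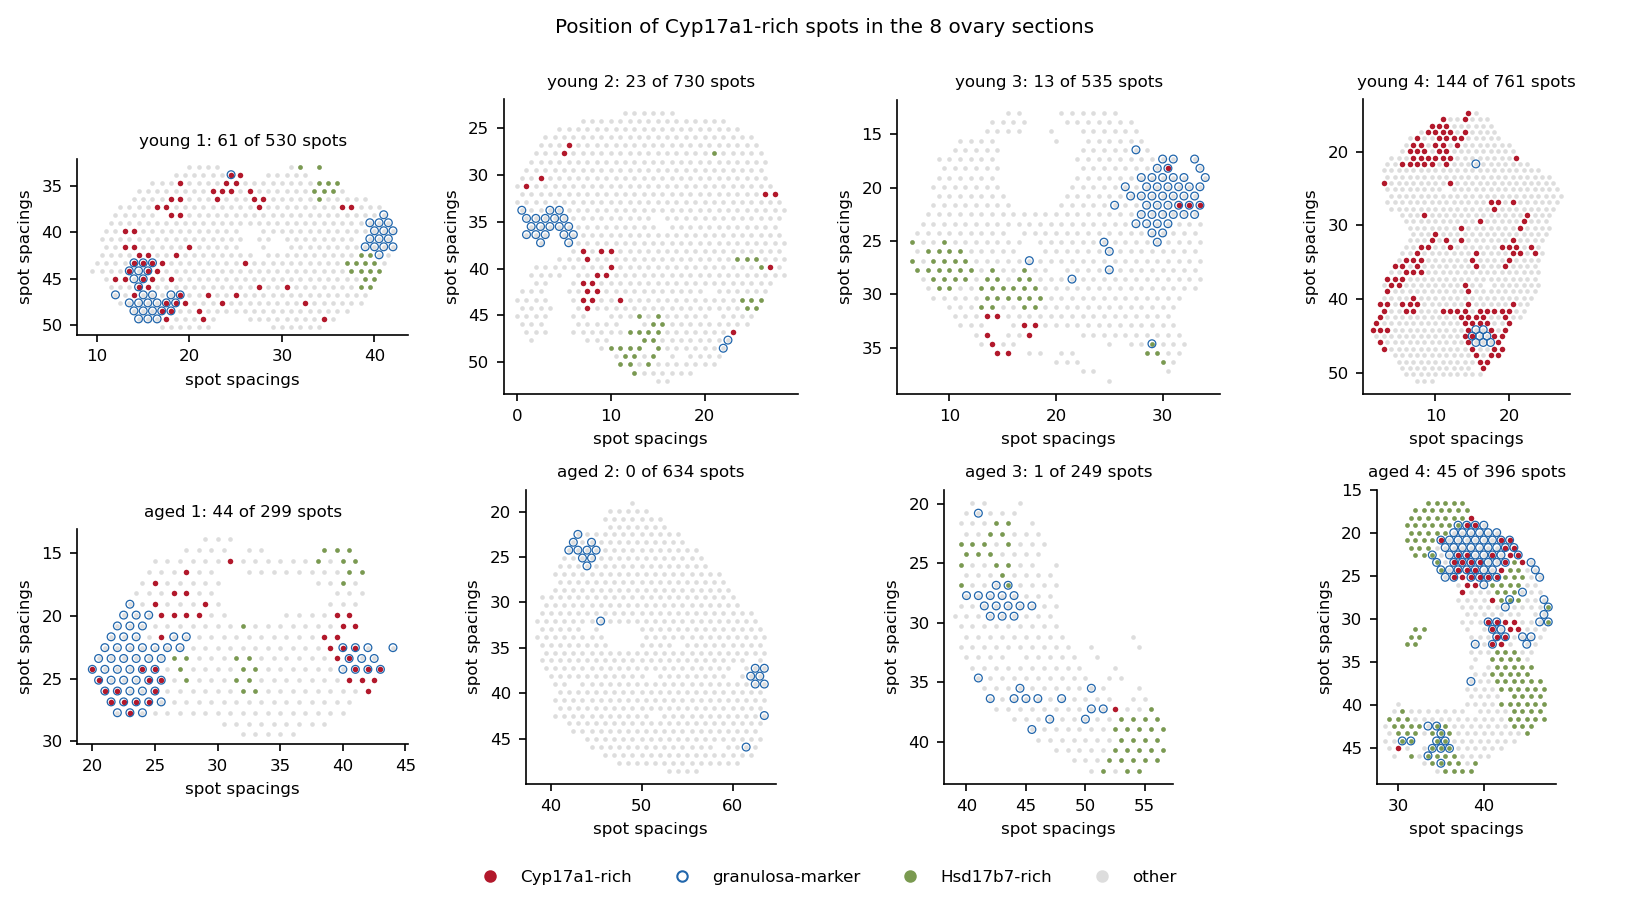
Position of every spot with at least 1000 UMIs in the 8 sections, with both axes in spot spacings; red points are Cyp17a1-rich spots, blue rings are granulosa-marker spots, green points are Hsd17b7-rich spots and grey points are the rest. Cyp17a1-rich spots form patches in young sections 1 and 4 and aged sections 1 and 4, and aged section 2 has 0.

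The share of Cyp17a1-rich spots varied widely among sections of both ages. In young sections 1 to 4 they made up 11.5% (61 spots; 95% exact binomial interval 8.92 to 14.5%), 3.15% (23 spots; 2.01 to 4.69%), 2.43% (13 spots; 1.3 to 4.12%) and 18.9% (144 spots; 16.2 to 21.9%). In aged sections 1, 3 and 4 they made up 14.7% (44 spots; 10.9 to 19.3%), 0.402% (1 spot; 0.0102 to 2.22%) and 11.4% (45 spots; 8.41 to 14.9%). Aged section 2 had 0 of 634 spots, which allows a share of up to 0.473%. The mean share was 9% ± 7.79 (SD, n = 4) in young and 6.62% ± 7.54 (SD, n = 4) in aged sections, a difference of −2.38 percentage points that was smaller than the spread within either age (two-sided exact permutation test, p = 0.657). Without young section 4 the difference was 0.924 percentage points, and without capture area 3 it was −2.50. After each spot was thinned to 5000 UMIs, which left out 333 shallower spots, the difference was −3.09 percentage points.

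**Figure D2:**
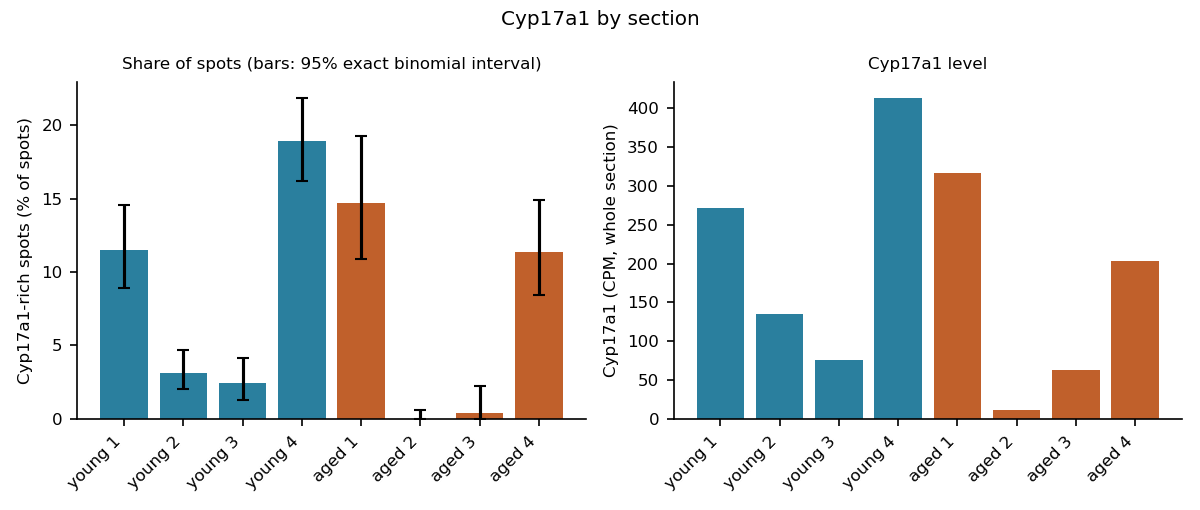
Left, share of spots that were Cyp17a1-rich in each section (% of spots with at least 1000 UMIs; error bars are 95% exact binomial intervals and cover counting error only); right, Cyp17a1 level over the whole section (CPM). Shares run from 2.43 to 18.9% in young sections and from 0 to 14.7% in aged sections, so that the ages overlap.

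Cyp17a1-rich spots lay next to each other. Position was not used to choose them, and 6 sections with at least 10 such spots entered these measures. Of the up to 6 spots adjacent to a Cyp17a1-rich spot, 34.6, 26.7, 34.1 and 48.5% were also Cyp17a1-rich in young sections 1 to 4, and 48.6 and 51.5% in aged sections 1 and 4. For other spots the shares were 8.85, 2.46, 1.53 and 12% and 8.93 and 6.56%. The mean share was 40.7% ± 10.2 against 6.71% ± 4.05 (SD, n = 6 sections), higher in 6 of 6 sections (two-sided exact sign-flip permutation test, p = 0.0312, the smallest this design allows, and 0.125 adjusted over 4 measures). The spots fell into 20, 10, 5 and 22 connected patches in young sections 1 to 4 and into 8 and 7 patches in aged sections 1 and 4. The largest patch held 39 spots, in young section 4. Spots with no Cyp17a1-rich neighbour numbered 12, 5, 1 and 8 in young sections and 4 and 4 in aged sections.

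Closeness to follicles differed among sections. A granulosa-marker spot, one of the 8% of spots highest in summed Inhba, Inhbb, Amh and Nppc, lay within 2 spot spacings of 52.5, 8.70, 30.8 and 14.6% of Cyp17a1-rich spots in young sections 1 to 4, against 20.9, 8.91, 33.9 and 6% of other spots. In aged sections 1 and 4 it lay that near to 81.8 and 100% of Cyp17a1-rich spots and to 32.2 and 61.0% of other spots. A spot that was itself a granulosa-marker spot counted as near. Among the Cyp17a1-rich spots these were 20 of 44 in aged section 1, 30 of 45 in aged section 4 and 0 to 13 in each young section. The means of 48.1% ± 37.0 and 27.1% ± 20.2 (SD, n = 6) did not differ beyond their spread (higher in 4 of 6 sections, exact sign-flip permutation p = 0.125, adjusted 0.167). With granulosa-marker spots left out of both sets, the difference was 17.4 percentage points (exact sign-flip permutation p = 0.219, adjusted 0.333). When the top 8% was taken within each section instead, so that 8 sections entered, the differences were 28.9 percentage points for adjacency and 25.2 for closeness to granulosa-marker spots (exact sign-flip permutation, adjusted p = 0.0312 for each). That choice takes in spots low in Cyp17a1. Aged section 2 held 103 Cyp17a1 UMIs over 634 spots, and 15.0% of these spots had any. In aged section 3 there were 174 Cyp17a1 UMIs over 249 spots. Luteal tissue rich in Hsd17b7 (a 17-beta-dehydrogenase of the corpus luteum) was marked by the 8% of spots highest in that gene. It lay within 2 spacings of 19.8% ± 23.1 of Cyp17a1-rich and 36.6% ± 27.5 of other spots (SD, n = 5, higher in 1 of 5, exact sign-flip permutation p = 0.125, where 0.0625 is the smallest possible). These spots do not stand for all luteal tissue, and 161 of the 331 lay in aged section 4. Young section 4 held 0 of them and did not enter. Yet its spots 3 or more spacings from a Cyp17a1-rich spot held 10855 CPM of the luteal gene Akr1c18. At the rim, with fewer than 6 adjacent tissue spots, lay 28.3% ± 25.7 of Cyp17a1-rich and 25.9% ± 6.71 of other spots (SD, n = 6; exact sign-flip permutation p = 0.906). Without young section 3, where 76.9% of Cyp17a1-rich spots lay at the rim, that difference was −7.09 percentage points.

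The level of Cyp17a1 dropped with distance from these spots, which the choice itself sets. It averaged 1318 ± 251 CPM in them, 294 ± 32.7 CPM in adjacent spots, 157 ± 55.0 CPM at 2 spacings and 67.6 ± 36.8 CPM at 3 or more (SD, n = 6 sections). Other genes, which the choice did not use, followed different courses over the same rings. Insl3, a peptide hormone of theca cells, averaged 28.7, 9.67, 6.33 and 3.21 CPM from the spots outwards. Hhip, a hedgehog target that binds the ligand, averaged 13.3, 8.40, 4.22 and 1.97 CPM. Inha, which encodes the alpha subunit of inhibin, was as high in adjacent spots (4410 CPM) as in the Cyp17a1-rich spots (4407 CPM) and averaged 1002 CPM at 3 or more spacings. Star averaged 938, 1646, 2535 and 3518 CPM and Akr1c18, the luteal enzyme that breaks down progesterone, 1155, 2132, 3666 and 7515 CPM, both lowest in the Cyp17a1-rich spots. Hsd3b1 averaged 7155 to 9263 CPM at all distances, but its course differed among sections. At 3 or more spacings it was higher than in the Cyp17a1-rich spots in young sections 1 to 3, as in young section 2 (9234 against 4085 CPM). It was lower there in young section 4 and aged sections 1 and 4, as in aged section 4 (9284 against 10565 CPM).

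**Figure D3:**
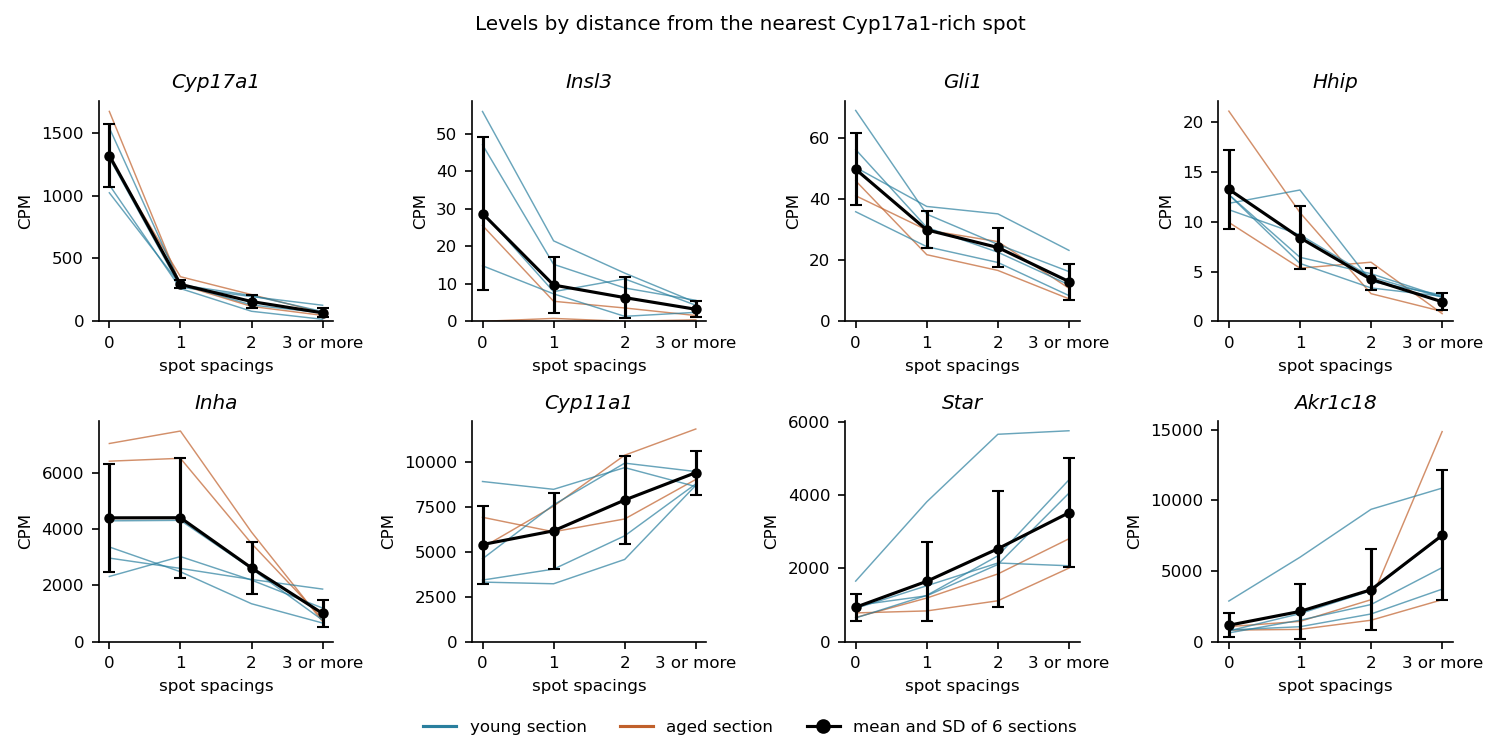
Level (CPM) of 8 genes in Cyp17a1-rich spots (0) and at 1, 2 and 3 or more spot spacings from the nearest one, in 6 sections; thin lines are sections, blue young and orange aged, and black points with bars are the mean and SD. Insl3, Gli1 and Hhip are highest on average at 0, whereas Star, Cyp11a1 and Akr1c18 are lowest on average there.

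Genes whose pattern over spots was most like that of Cyp17a1 were ranked by the median over 8 sections of the Spearman correlation within a section, among 3665 genes with at least 50 CPM. The spots share the library and its depth, and the correlations are a description. Inha led with a median rho of 0.525, and the genes after it included Fabp3 (0.420), Prkar2b (0.402), Obsl1 (0.395), Trib2 (0.387), Gas6 (0.374), Mid1ip1 (0.365), Mt3 (0.355) and Defb19 (0.348). Fabp3 encodes a fatty-acid binding protein and Prkar2b a regulatory subunit of the cyclic-AMP-dependent kinase. In aged section 2, which had no Cyp17a1-rich spot, the rho of Inha was −0.0431. At the other end stood Sfrp4, a secreted Wnt inhibitor of luteal cells, at −0.423.

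Levels in the Cyp17a1-rich spots were next compared with those in the other spots of the same section, over counts summed per section, in young sections 1 to 4 and aged sections 1 and 4. The Cyp17a1-rich sums held 337087 to 3140610 UMIs. Of 13864 genes tested, 582 (4.2%) were higher and 1090 (7.86%) lower in the Cyp17a1-rich spots, 12.1% in all (edgeR quasi-likelihood test, Benjamini-Hochberg adjusted p under 0.05), with a median log2 difference of −0.01 over all genes, and 2215 genes (16.0%) went 1 way in all 6 sections. Without capture area 3, 1386 genes passed. The name theca and interstitial tissue was checked against 11 markers other than Cyp17a1. Of these 2 were higher (Insl3 and Aldh1a1), 4 were lower (Star, Cyp11a1, Scarb1 and Prlr) and 5 passed in neither direction, so that the markers went partly against the name, and the spots are called by their gene here. The other markers shared by theca and corpus luteum were set against a background that held luteal tissue. The 12 luteal markers summed to 2070 to 6265 CPM in Cyp17a1-rich and 7991 to 24276 CPM in other spots, and none of them was at 0 in all sections. When the 25% of spots highest in luteal genes were left out, 534 genes passed, 193 higher and 341 lower, and 495 of them were among the 1672.

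The enzymes of androgen synthesis other than Cyp17a1 did not rise with it as a group. Of 9 genes tested, 1 was higher and 3 lower, with a median log2 difference of −0.42. Star stood at 645, 985, 1652 and 907 CPM in the Cyp17a1-rich spots of young sections 1 to 4 and at 783 and 659 CPM in aged sections 1 and 4. In the other spots it stood at 3047, 3571, 5606 and 1896 CPM and at 1583 and 2385 CPM. The level was lower in all 6 sections, by 1.73 ± 0.154 on the log2 scale (SE of the fit, adjusted p = 8.66e-07), and the ranges met only between young section 3 and aged section 1. Without the luteal-marker spots Star still fell, with a log2 difference of −0.93 (adjusted p = 0.00259).

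Cyp11a1 stood at 3310, 3421, 4604 and 8908 CPM in young sections 1 to 4 and at 6916 and 5238 CPM in aged sections 1 and 4, against 6175, 7993, 9351 and 8827 CPM and 7962 and 10856 CPM in other spots. It was lower in 5 of 6 sections, with young section 4 the exception (log2 difference −0.84 ± 0.158, adjusted p = 0.00147). Without the luteal-marker spots the difference was −0.37 and no longer passed (adjusted p = 0.313). Hsd3b1 ranged over 4089 to 10583 CPM and 5757 to 13455 CPM (log2 difference −0.44, adjusted p = 0.0599). Cyb5a, the cytochrome b5 that favours the lyase reaction of Cyp17a1, was higher in 6 of 6 sections, at 770 to 1724 CPM against 481 to 1412 CPM, and just missed the threshold (log2 difference 0.35, adjusted p = 0.0507). Srd5a1, a steroid 5-alpha-reductase, was the gene that passed as higher (log2 difference 0.63, adjusted p = 0.0153), a call lost without young section 1 (adjusted p = 0.0605) or young section 4 (adjusted p = 0.0563) and without the luteal-marker spots (0.40, adjusted p = 0.159). Fdxr, the reductase that feeds electrons to Cyp11a1, was the third lower gene (−0.42, adjusted p = 0.0438) and lost its call without any of young sections 2 and 3 and aged sections 1 and 4 (adjusted p of 0.0534 to 0.185).

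Genes that supply cholesterol were mostly lower. Of 17 tested, 11 were lower and 1 was higher, with a median log2 difference of −0.70. Scarb1, the receptor that takes up cholesterol ester from high-density lipoprotein, stood at 410, 533, 982 and 851 CPM in young sections and 668 and 898 CPM in aged sections, against 955, 1145, 2223 and 935 CPM and 1021 and 1429 CPM. It was lower in 6 of 6 sections (log2 difference −0.92 ± 0.135, adjusted p = 0.000157), and without the luteal-marker spots the difference was −0.42 (adjusted p = 0.180). Hmgcs1, an early enzyme of cholesterol synthesis, was lower in 6 of 6 sections, at 150 to 481 CPM against 230 to 1598 CPM (−1.25, adjusted p = 0.00025). Abca1, which exports cholesterol from cells, was the 1 gene of this list that was higher, in 6 of 6 sections (0.53, adjusted p = 0.0466; 0.51 and 0.0710 without the luteal-marker spots).

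**Figure D4:**
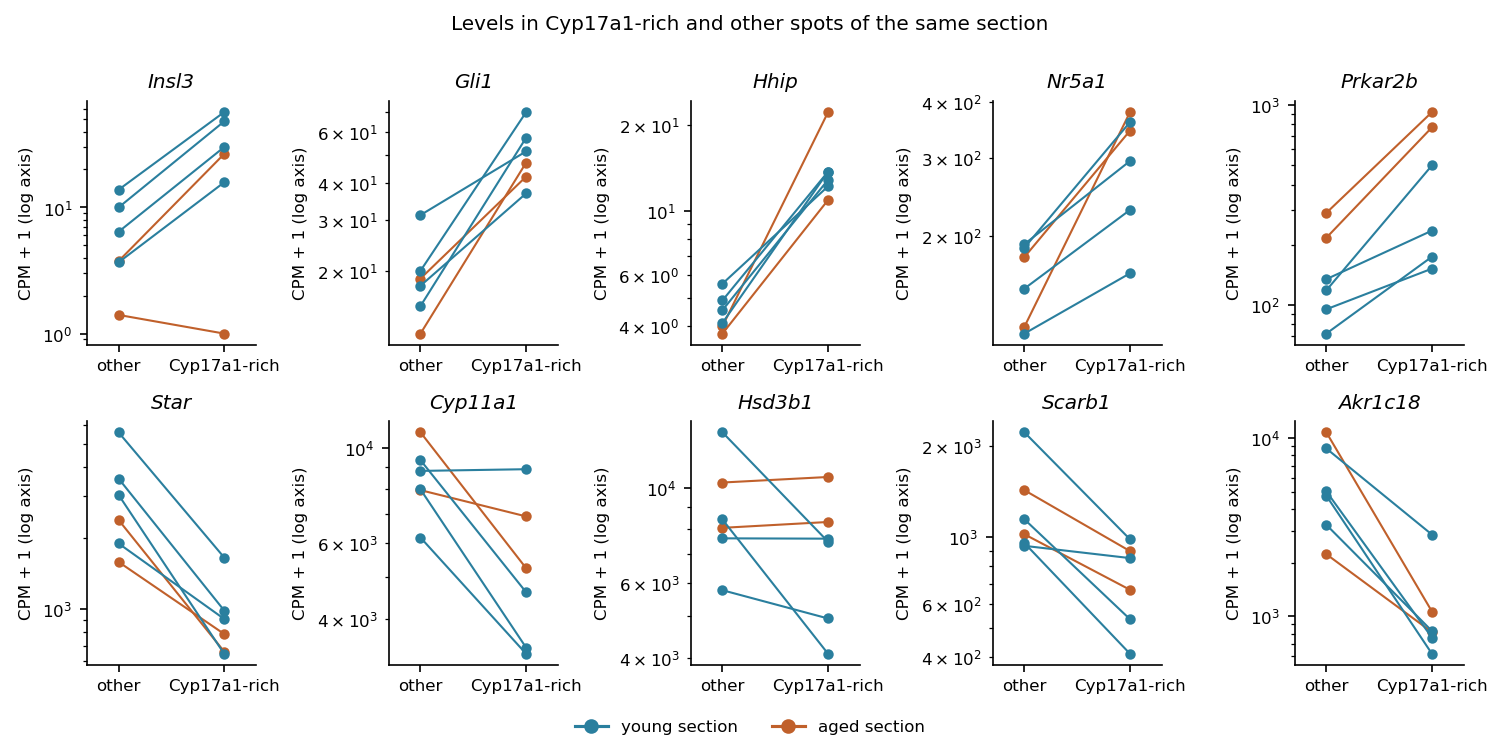
Level (CPM plus 1, log axis) of 10 genes in other spots and in Cyp17a1-rich spots of the same section, joined by a line for each of 6 sections, blue for young and orange for aged. Gli1, Hhip, Nr5a1 and Prkar2b go up in every section, and Star, Scarb1 and Akr1c18 go down in every section.

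Of 12 genes tested of luteinising hormone and insulin-like signalling, 3 were higher and 1 lower. Insl3 (chromosome 8, 71689214 to 71690575) stood at 47.1, 29.1, 14.8 and 56.0 CPM in young sections 1 to 4 and at 25.6 CPM in aged section 1, against 9, 5.41, 2.67 and 12.8 CPM and 2.75 CPM in other spots. These levels rest on 5 to 176 UMIs. Aged section 4 stood apart, with 0 of 520278 UMIs in Cyp17a1-rich spots, which allows up to 5.77 CPM, and 3 UMIs in the others. The log2 difference over 6 sections was 2.29 ± 0.207 (adjusted p = 9.15e-07), higher in 5 of 6 sections, and it was 2.09 without the luteal-marker spots. Prkar2b stood at 235, 151, 498 and 174 CPM in young and 921 and 773 CPM in aged sections, against 134, 94.3, 118 and 71.0 CPM and 288 and 216 CPM, and was higher in 6 of 6 (1.31 ± 0.150, adjusted p = 1.09e-05). Adcy7, an adenylyl cyclase, was higher as well (0.84, adjusted p = 0.00298), and Prlr, the prolactin receptor, was lower (−1.16, adjusted p = 1.66e-05). Lhcgr ranged over 195 to 1082 CPM and 156 to 664 CPM and passed in neither direction (0.24, adjusted p = 0.515).

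Hedgehog signalling and theca growth was the list with targets and a ligand among the higher genes. Of 16 tested, 6 were higher and 2 lower, with a median log2 difference of 0.32. Gli1, the transcription factor that hedgehog signalling induces, stood at 50.5, 69.2, 56.4 and 36.0 CPM in young and 41.2 and 46.1 CPM in aged sections, against 30.2, 19.1, 14.2 and 16.9 CPM and 17.9 and 11.2 CPM. All 6 Cyp17a1-rich values lay above all 6 others (1.29 ± 0.170, adjusted p = 4.84e-05). Hhip stood at 11.2, 12.7, 11.9 and 12.7 CPM in young and 9.95 and 21.1 CPM in aged sections, against 4.60, 3.09, 3.53 and 3.89 CPM and 2.75 and 2.98 CPM (1.76 ± 0.265, adjusted p = 0.000185). Each of these Hhip levels rests on only 4 to 40 UMIs in the Cyp17a1-rich spots. The receptor Ptch1 was higher in 6 of 6 sections (0.75, adjusted p = 0.00123).

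The ligand Dhh, made by granulosa cells, was higher in 6 of 6 sections (0.87, adjusted p = 0.0109), and Ihh passed in neither direction (0.36, adjusted p = 0.357). The Dhh call was lost without aged section 4 (0.73, adjusted p = 0.0589), without granulosa-marker spots (0.58, adjusted p = 0.205) and without luteal-marker spots (0.35, adjusted p = 0.499). Gli1 kept its call without luteal-marker spots (0.89, adjusted p = 0.00564) and without granulosa-marker spots (1.27). Kit, the receptor of theca and oocytes for a granulosa growth factor, was higher as well (1.23, adjusted p = 2.55e-05). The lower pair were Bmp7 (−1.22), a growth factor of theca, and Gdf9 (−1.12), an oocyte factor. Without the luteal-marker spots Bmp7 no longer passed (−0.41, adjusted p = 0.472).

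Transcription factors of the gonad gave 6 higher and 2 lower genes of 15. Nr5a1, steroidogenic factor 1, stood at 228, 164, 294 and 360 CPM in young and 344 and 379 CPM in aged sections, against 151, 120, 191 and 187 CPM and 178 and 124 CPM. It was higher in 6 of 6 sections, and the groups overlapped only through young section 2 (0.77 ± 0.122, adjusted p = 0.000308). Gata4, a partner of Nr5a1 at steroidogenic promoters, stood at 76.5 to 244 CPM against 52.6 to 103 CPM (0.99, adjusted p = 5.19e-05). Nr2f2, a nuclear receptor of theca and stroma, was higher by a log2 difference of 0.57. Foxo1, a factor of granulosa cells, was higher by 0.96 (adjusted p = 0.00255), and most so in young section 3, at 481 against 79.9 CPM. Nr5a2 (0.42) and Tcf21 (0.49) were the remaining higher genes and Gata6 (−0.40) and Nr4a1 (−0.56) the lower ones, and each of these 4 lost its call when 1 of several sections was left out, young section 2 among them for all 4 (adjusted p of 0.0742 to 0.108). These 4 did not pass without the luteal-marker spots either, nor did Foxo1 (0.58, adjusted p = 0.152).

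Retinoid and detoxification genes gave 7 higher and 1 lower gene of 15. Aldh1a1, which makes retinoic acid and marks interstitial tissue, stood at 1504, 703, 1151 and 2028 CPM in young and 1359 and 996 CPM in aged sections, against 1087, 557, 1091 and 922 CPM and 776 and 467 CPM. It was higher in 6 of 6 sections, with young section 3 nearly level (0.55 ± 0.131, adjusted p = 0.00828). The epoxide hydrolase Ephx1 (0.95, adjusted p = 6.00e-06) and the glutathione transferases Gstm1 (0.74) and Gstm2 (0.81) were also higher. Crabp2 (0.97) and Rbp4 (1.52), carriers of retinoic acid and retinol, were higher, and Stra6 (−1.26), a receptor for the retinol carrier, was lower. Rbp4 rests on 13 to 43 UMIs in the Cyp17a1-rich spots of most sections. In young section 3 it had 0 UMIs there, which allows up to 8.90 CPM, and 65 UMIs in the other spots. Crabp2 did not pass without the luteal-marker spots (0.69, adjusted p = 0.145).

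Markers of several other cell types differed as well. Of 16 granulosa markers 8 were higher and 0 lower, and the list summed to 4287 to 12651 CPM against 2614 to 5835 CPM in other spots. Inha stood at 2977, 2321, 4305 and 3375 CPM in young and 6433 and 7066 CPM in aged sections, against 2153, 1478, 1169 and 1479 CPM and 2557 and 2357 CPM (1.08 ± 0.153, adjusted p = 0.000103). Cyp19a1, the aromatase of granulosa cells, was higher by 1.27, through aged sections 1 and 4 at 203 and 140 CPM, since young sections held 0 to 26.7 CPM. Of the Cyp17a1-rich spots 68 (20.5%) were themselves granulosa-marker spots, 20 of 44 in aged section 1 and 30 of 45 in aged section 4 but 0 to 13 in each young section. Without the granulosa-marker spots 1134 genes passed, 369 higher and 765 lower, with Insl3 at 2.22, Star at −1.59 and Inha at 1.07. The log2 differences of Cyp19a1 (0.78, adjusted p = 0.356) and Nppc (0.77, adjusted p = 0.333) then no longer passed, nor did Inhba (0.33, adjusted p = 0.248), Fst (0.48, adjusted p = 0.211) or Serpine2 (0.38, adjusted p = 0.270). Nppc and Inhba were among the genes that chose the spots left out.

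Stromal and muscle markers were higher too. Of 14 stroma markers 8 were higher and 0 lower, among them the collagen gene Col1a2, at 469 to 690 CPM against 143 to 494 CPM (0.77, adjusted p = 0.000574). The stromal gene Agt, which encodes angiotensinogen, was 1 of the 6 that passed in neither direction (0.07, adjusted p = 0.752). Of 12 smooth muscle markers, which the theca externa shares, 6 were higher and 0 lower, with Acta2 at 394 to 2067 CPM against 218 to 675 CPM (1.01, adjusted p = 0.000696; 0.59 and 0.0532 without the luteal-marker spots). Of 11 luteal markers tested 8 were lower and 0 higher, with Akr1c18 at 614 to 2872 CPM against 2230 to 10784 CPM (−2.44, adjusted p = 8.79e-07). Markers of the surface epithelium were lower in 7 of 10 cases and higher in 0. Of 13 endothelial, 12 macrophage and 11 lymphoid markers 1 each was lower and 0 were higher, a share near the 7.86% of all genes that were lower. Of 9 oviduct markers 4 and of 11 oocyte markers 2 were lower and 0 higher, with median log2 differences of −1.38 and −0.62. Of 12 genes of the mitochondrial genome 3 were lower and 0 higher, with a median of −0.57, and the mitochondrial share of UMIs was 0.570 to 2.48% in Cyp17a1-rich and 0.603 to 2.53% in other spots. Within sections it was 0.905 against 1.97% in young section 1 and 0.602 against 1.36% in aged section 4. It was slightly lower in young section 4 and aged section 1 and slightly higher in young sections 2 and 3. The part of these other cell types and of the mitochondrial RNA in the differences above was not tested beyond leaving out the granulosa-marker and luteal-marker spots.

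Outside the lists the largest higher genes included Rhox8 (2.71, adjusted p = 1.66e-07), a homeobox gene of the X chromosome, and Fabp3 (1.81, adjusted p = 1.15e-07). Fabp3 stood at 376, 184, 142 and 459 CPM in young and 355 and 296 CPM in aged sections, against 113, 66.8, 35.3 and 122 CPM and 112 and 43.2 CPM. No other-spot value reached the lowest Cyp17a1-rich value, so that the groups did not overlap. Trib2, a pseudokinase, was higher by 1.39, and Ccdc3 (1.71), Zbtb8b (1.69) and Aoc3 (1.36) followed. Bpifb4 and Bpifb5, neighbours in a gene family of secreted lipid-binding proteins, were higher by 1.3 each. The largest lower genes included S100g (−2.50), a calcium-binding protein, Spp1 (−2.46), which encodes osteopontin, Cdkn2b (−2.33), a cell cycle inhibitor, and Tnfrsf9 (−2.23).

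Against luteal tissue rich in Hsd17b7 the contrast was sharper. Hsd17b7-rich spots that were no members were compared in young sections 1 to 3 and aged sections 1 and 4; these comparisons and the one with Agt-rich spots below share the Cyp17a1-rich sums with the first. Of 9898 genes 1176 (11.9%) were higher and 1406 (14.2%) lower in the Cyp17a1-rich spots, 26.1% in all, and 3414 (34.5%) went 1 way in all 5 sections. Without capture area 3, 1822 genes passed. Star stood at 645, 985, 1653 CPM in young and 783 and 660 CPM in aged sections, against 2435, 1210 and 9872 CPM and 3519 and 2936 CPM (−2.04 ± 0.286, adjusted p = 0.00026), lower in 5 of 5. Cyp11a1 (−1.72, adjusted p = 6.21e-05) and Hsd3b1 (−1.03, adjusted p = 0.00282) were lower in 5 of 5 sections as well. Lhcgr stood at 304, 195 and 404 CPM in young and 1082 and 625 CPM in aged sections, against 1268, 1362 and 1949 CPM and 1141 and 817 CPM (−1.70 ± 0.348, adjusted p = 0.00346), with the gap small in aged section 1. Of 17 genes of cholesterol supply 15 were lower and 2 higher, Hmgcs1 by −3.02 (adjusted p = 9.11e-07).

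Lists of several kinds were higher than in the Hsd17b7-rich spots, markers of other cell types among them. Of 13 stroma markers 12, of 15 granulosa markers 10 and of 11 smooth muscle markers 8 were higher and 0 lower, with median log2 differences of 1.63, 1.68 and 1.80. Of 11 mitochondrial genes 3 were lower and 0 higher, with a median of −0.82. The part of these in the differences was not tested. Of 12 hedgehog and theca growth genes tested 8 were higher and 0 lower. Gli1 stood at 50.5, 69.2 and 56.4 CPM in young and 41.2 and 46.2 CPM in aged sections, against 9.24, 4.84 and 0.612 CPM and 2.95 and 4.08 CPM, with no overlap (3.54 ± 0.354, adjusted p = 2.05e-05). Of the gonadal transcription factors 6 of 11 were higher and 0 lower, Nr5a1 by 1.73 and Gata4 by 1.85. Of the retinoid and detoxification genes 8 of 11 were higher and 0 lower, Aldh1a1 by 1.24. Insl3 was higher in 4 of 5 sections (2.38 ± 0.486, adjusted p = 0.00402), with aged section 4 at 0 in both sets.

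Against the Agt-rich stroma the differences were fewer. Of the 331 Cyp17a1-rich spots 55 (16.6%) were themselves Agt-rich, 46 of 144 in young section 4 and 7 of 44 in aged section 1. They stayed in the Cyp17a1-rich sums and were left out of the Agt-rich sums only. Their part in the smaller number of differences was not tested. In young sections 2 to 4 and aged sections 1 and 4, 162 of 8942 genes (1.81%) were higher and 129 (1.44%) lower in the Cyp17a1-rich spots, 3.25% in all, and 1409 (15.8%) went 1 way in all 5 sections. The counts fell to 159 without young section 2, 174 without young section 3 and 193 without aged section 4. The Agt-rich sums held 88907 to 2572403 UMIs, shallower than most others. Insl3 stood at 29.1, 14.8 and 56.1 CPM in young and 25.6 and 0 CPM in aged sections, against 4.89, 0 and 14.8 CPM and 0 and 0 CPM (2.19 ± 0.367, adjusted p = 0.00153). The values of 0 in Agt-rich spots come from 128344 UMIs in young section 3 and from 424738 and 88907 UMIs in aged sections 1 and 4. Sums this shallow do not show that Insl3 was absent. Cyb5a stood at 1043, 1623 and 770 CPM in young and 1463 and 1725 CPM in aged sections, against 455, 436 and 502 CPM and 1022 and 596 CPM, higher in 5 of 5 (1.09 ± 0.206, adjusted p = 0.00382). Akr1c14, an aldo-keto reductase that acts on 5-alpha-reduced steroids, was higher in 5 of 5 sections (1.39 ± 0.267, adjusted p = 0.00442), and Prkar2b was higher by 2.19.

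Steroid enzymes went both ways against the stroma, with 2 of 9 androgen synthesis genes higher (Cyb5a and Akr1c14) and 3 lower. Srd5a1 stood at 31.0, 29.7 and 39.5 CPM in young and 35.5 and 55.8 CPM in aged sections, against 176, 77.9 and 53.7 CPM and 68.3 and 67.5 CPM, lower in 5 of 5 (−1.02, adjusted p = 0.0347). It lost its call without young section 2 (−0.66, adjusted p = 0.197), without young section 3 (adjusted p = 0.0788) and without aged section 1 (adjusted p = 0.0754). Fdxr (−0.77) was lower, and without young section 2 its difference was −0.62 (adjusted p = 0.0788). Por, the reductase that supplies Cyp17a1 with electrons, was lower (log2 difference −0.65, adjusted p = 0.0415), with adjusted p of 0.0664 to 0.186 without young section 2, 3 or 4 or aged section 4. Star (−0.62, adjusted p = 0.0800), Gli1 (0.89, adjusted p = 0.157) and Nr5a1 (−0.05) did not pass. Of 11 theca and interstitial markers other than Cyp17a1, 3 were higher (Insl3, Cyb5a and Lhcgr) and 1 was lower (Por). Lhcgr passed only narrowly (0.83, edgeR adjusted p = 0.0418). Of 13 retinoid and detoxification genes 2 were higher and 2 lower, with a median log2 difference of −0.31, and the list summed to 4388 to 7220 CPM in Cyp17a1-rich and 6903 to 8346 CPM in Agt-rich spots. Mgst1 (−0.65, adjusted p = 0.0256) and Gstm1 (−0.61, adjusted p = 0.0490) were the lower glutathione transferases, and the Gstm1 call was lost without any of young sections 2 to 4 and aged sections 1 and 4 (adjusted p of 0.0689 to 0.186). Aldh1a1, lower in 4 of 5 sections, did not pass (−0.63, adjusted p = 0.0865). Granulosa markers were higher in 10 of 13 cases and lower in 0 in this comparison, so that the granulosa signal moved with it, and its part was not tested.

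Among the Cyp17a1-rich spots themselves, those near granulosa-marker spots differed from those farther away. The comparison used spots within 2 spacings of a granulosa-marker spot against the rest, with 32 and 29 spots in young section 1, 21 and 123 in young section 4, and 36 and 8 in aged section 1. Of 8699 genes 33 (0.379%) were higher and 10 (0.115%) lower near granulosa-marker spots, 0.494% in all, and 2467 (28.4%) went 1 way in all 3 sections. Without young section 4, 0 of 7549 genes passed in edgeR (353 at an unadjusted p under 0.05, lowest adjusted p 0.0761), so that no call was kept. That fit had fewer sections, so the loss of calls cannot tell smaller differences from too few replicates. Cyb5a stood at 1500, 1244 and 1591 CPM near and 904, 647 and 400 CPM away in young sections 1 and 4 and aged section 1, with no overlap (1.15 ± 0.191, adjusted p = 0.00254). Without young section 4 its difference was 1.25 (adjusted p = 0.0828), and without the granulosa-marker spots it was 0.61 (adjusted p = 0.556). Akr1c14 was higher near (0.89, adjusted p = 0.0303), and without young section 4 its log2 difference was 0.65.

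Granulosa genes led this contrast, in which the near spots include granulosa-marker spots themselves, and the 4 genes that chose those were left out of this test. Of 11 granulosa markers tested 6 were higher near, the list summing to 5721 to 11582 CPM near and 2732 to 4282 CPM away, with Inha at 3528, 4495 and 6977 CPM against 2337, 3082 and 1919 CPM (1.01, adjusted p = 0.0153). Lower near granulosa-marker spots were Agt, at 195, 286 and 427 CPM against 381, 1129 and 613 CPM (−1.21, adjusted p = 0.00254), and Apoe, the lipoprotein of macrophages and steroidogenic cells (−0.997). The complement genes C1qa (−0.93) and C1qb (−0.76) of macrophages and the metalloproteinase Mmp11 (−1.02) were lower too. Insl3 (−1.10, adjusted p = 0.185), Hhip (2.18, adjusted p = 0.0633), Star (−0.49) and Gli1 (−0.12) did not pass. Without the granulosa-marker spots 4 genes passed, Igha, Igkc and Mid1ip1 as higher and Mmp11 as lower. Cyp17a1 itself stood at 1515, 2123 and 1285 CPM near and 1052, 1388 and 1426 CPM away, higher near in both young sections and lower in the aged section, as a description.

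The age comparison within the Cyp17a1-rich spots asks how this tissue differs between young and aged ovaries, and it sets aged sections 1 and 4 against young sections 1 to 4. Of 9076 genes 48 (0.529%) were higher and 7 (0.0771%) lower in aged sections, 0.606% in all, and for 1443 genes (15.9%) the ages did not overlap. A fit that blocks by capture area called 147 genes, 102 higher and 45 lower, all 55 among them. Its age difference rests on capture areas 1 and 4 alone, since areas 2 and 3 entered with a young section only. So few sections leave little to measure the spread, and the larger count is no firmer result. The count was 8 without aged section 1, 36 without aged section 4, 116 without young section 4 and 64 without capture area 3. Without the granulosa-marker spots 1 gene passed, the surface antigen Ly6a (2.36, adjusted p = 0.0249). When the top 8% was taken within each section, so that 4 aged and 4 young sections entered, 0 of 8347 genes passed in edgeR. The unadjusted p was under 0.05 for 450 of them, and the lowest adjusted p was 0.330. That choice brought in aged sections 2 and 3, which held little Cyp17a1 (10.9 and 62.7 CPM over the whole section).

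The genes higher in aged sections were led by granulosa genes. Cyp19a1 stood at 203 and 140 CPM in aged sections 1 and 4 and at 5.61, 0, 26.7 and 2.87 CPM in young sections 1 to 4, with no overlap (5.04 ± 0.517, adjusted p = 0.000309 in edgeR and 0.0789 in DESeq2). Hsd17b1, the granulosa enzyme that makes oestradiol, stood at 408 and 392 CPM against 108, 38.2, 137 and 50.3 CPM (2.37 ± 0.335, adjusted p = 0.00498). Rhox8 stood at 165 and 117 CPM against 6.73, 5.46, 11.9 and 8.28 CPM (4.17 ± 0.288, adjusted p = 5.17e-06). Without the granulosa-marker spots the log2 difference of Hsd17b1 was 0.21 (adjusted p = 0.970). Of 19 genes named by rule for this comparison, Cyp19a1, Rhox8, Masp1 (3.51) and Slc26a7 (3.12) kept their edgeR calls whichever section was left out. Serp2 (3.71) kept its call in each such fit whose filter on low counts it passed, and the other 14 lost theirs without at least 1 section.

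Inhba, the beta subunit of inhibin and activin, stood at 1347 and 878 CPM against 98.8, 7.28, 315 and 44.9 CPM (3.47, adjusted p = 0.0256), and its adjusted p was 0.467 without aged section 1. Of 15 granulosa markers 4 were higher and 0 lower, and the list summed to 12597 and 12651 CPM in aged against 4287 to 7666 CPM in young sections. Prkar2b stood at 921 and 773 CPM against 235, 151, 498 and 174 CPM (1.76, adjusted p = 0.0289). Its call was lost without aged section 1, aged section 4 or young section 1 (adjusted p of 0.105 to 0.573), and without the granulosa-marker spots its log2 difference was −0.045. Immunoglobulin genes were higher mainly through aged section 1, where Igkc stood at 819 CPM, against 55.7 CPM in aged section 4 and 7.32 to 34.8 CPM in young sections (4.57, adjusted p = 0.0119, and 1.49 without aged section 1). The mitochondrial share of UMIs in the Cyp17a1-rich spots was 2.48% in aged section 1 and 0.602% in aged section 4, against 0.570 to 1.12% in young sections, and its part in these differences was not tested.

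Lower in the aged sections were 7 genes. Gem, a small GTPase, stood at 8.53 and 11.5 CPM against 61.7, 120, 56.4 and 58.0 CPM (−2.88 ± 0.491, adjusted p = 0.0136), and Rgs2, a regulator of G-protein signalling, at 48.3 and 65.4 CPM against 189, 306, 169 and 161 CPM (−1.88 ± 0.351, adjusted p = 0.0219). The ages did not overlap for either gene. Slc38a3 (−2.71), an amino acid transporter, Cables1 (−2.37) and Apoa4 (−1.73), an apolipoprotein, were also lower. None of these 5 passed without aged section 1 or without aged section 4, where the adjusted p ran from 0.101 to 0.738.

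For the androgen pathway the age comparison gave no call. Of 9 genes tested 0 passed in edgeR, 0 had an unadjusted p under 0.05 and 0 passed in DESeq2, with a median log2 difference of 0.28. Of all genes only 0.606% passed, so that a count of 0 in a list of this size is near the background and does not show that the pathway was alike in both ages. In the edgeR fit that blocks by capture area, where age rests on areas 1 and 4 alone, 1 passed, Akr1c14 (1.16, adjusted p = 0.0346). Hsd3b1 stood at 8309 and 10583 CPM in aged against 4945, 4089, 7470 and 7596 CPM in young sections, without overlap but far from the threshold (0.66, adjusted p = 0.739). Star stood at 783 and 659 CPM against 645, 985, 1652 and 907 CPM (−0.51, adjusted p = 0.846), and the ages overlapped. Lhcgr stood at 1082 and 625 CPM against 304, 195, 404 and 455 CPM (1.36 ± 0.311, adjusted p = 0.0729). Of 12 hedgehog and theca growth genes 0 passed in either direction, with 4 at an unadjusted p under 0.05 against 715 (7.88%) of all genes, and Gli1 differed by −0.21 (adjusted p = 0.981). Insl3, at 25.6 and 0 CPM against 14.8 to 56.0 CPM, did not pass (−1.52, adjusted p = 0.563).

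**Figure D5:**
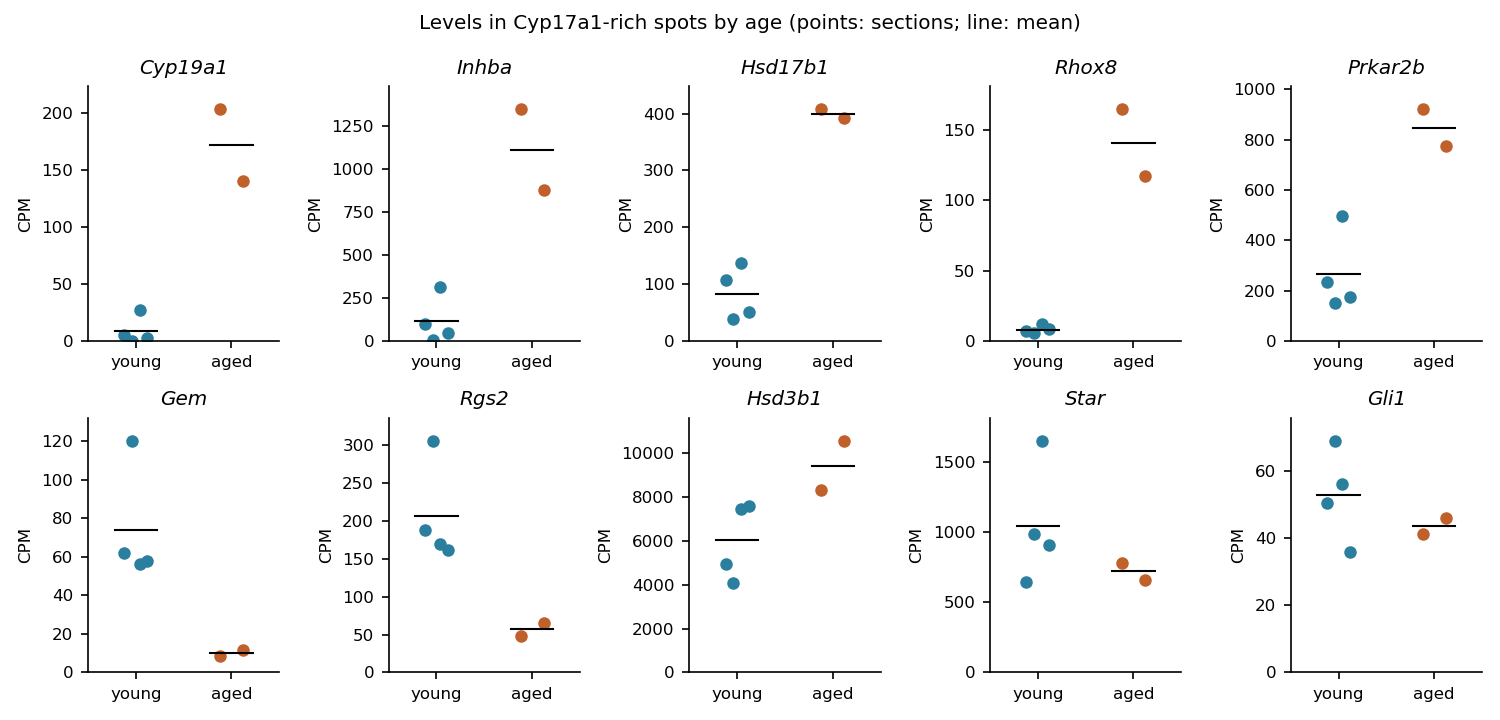
Level (CPM) of 10 genes in the Cyp17a1-rich spots of 4 young and 2 aged sections; each point is a section and the line is the mean of its group. Cyp19a1, Inhba, Hsd17b1, Rhox8 and Prkar2b are higher and Gem and Rgs2 lower in the aged sections with no overlap, Hsd3b1 does not overlap either but did not pass, and Star and Gli1 overlap.

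Whether the age difference itself differed between Cyp17a1-rich and other spots was tested with an interaction term over the same 6 sections. Of 13864 genes 11 (0.0793%) passed, 6 (0.0433%) with a larger and 5 (0.0361%) with a smaller aged-over-young ratio in the Cyp17a1-rich spots. Without capture area 3, 10 passed. Hsd17b1 stood at 408 and 392 CPM in the Cyp17a1-rich spots of aged sections 1 and 4, at 126 and 109 CPM in their other spots, and in young sections at 38.2 to 137 CPM and 48.3 to 109 CPM (1.70 ± 0.251, adjusted p = 0.00704). Cyp1b1, an enzyme that hydroxylates oestrogens, stood at 78.2 and 140 CPM in the Cyp17a1-rich and 122 and 214 CPM in the other spots of aged sections, against 145 to 187 CPM and 72.0 to 110 CPM in young sections (−1.39 ± 0.229, adjusted p = 0.0140). It was thus higher in the Cyp17a1-rich than in the other spots in 4 of 4 young sections and lower in 2 of 2 aged sections, and its adjusted p was 0.104 without aged section 4. With the top 8% taken within each section 0 of 13077 genes passed in edgeR (727 at an unadjusted p under 0.05, lowest adjusted p 0.189). That choice takes in spots of aged sections 2 and 3, where Cyp17a1 was low.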

How the data were processed

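Spatial gene expression was measured with the Visium assay. The authors deposited, for each capture area, a matrix of UMI counts by gene and spot, whole numbers with no normalization, and position files in other units (array rows and columns), per the files' layout and the labels. Per the submitters' processing notes the authors used Space Ranger 1.2.1 and build mm10; how strand and annotation were handled is not stated there. GENCODE M21 gave the gene positions printed.

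The members, gene lists and comparisons were chosen with earlier results of these data known. Of 4263 spots marked over tissue, 4191 had counts, and 57 of these had under 1000 UMIs. Each spot's age came from the side that the labels give for its ovary; both ovaries of an area were separated where the largest empty stretch fell within the middle 60% of the positions, with small pixel rows taken as the top and small columns as the left. Counts were summed per section and set (at least 10 spots, or 5 for the near comparison) and tested in R 4.3.3 by the quasi-likelihood method of edgeR 4.0.16 (with TMM and filterByExpr, limma 3.58.1), with section as a covariate within sections. Benjamini-Hochberg adjustment ran over all genes tested, threshold 0.05. Genes used to choose a set were left out, except that Cyp17a1 stayed in the near comparison. Where marker spots were left out against other spots or for age, only Cyp17a1 was dropped. The genes that chose those marker spots stayed in. Values after ± beside a log2 difference are standard errors of the fit. CPM are over total counts without TMM factors, so that their ratio can differ from the log2 difference. P-values over sections measure the spread between animals, 1 section each. Intervals and limits from a count of 0 (3 counts) cover counting error only.

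Sections of 1 capture area are paired, since they shared a library. Deviations of paired sections, over all spots with at least 1000 UMIs, correlated across 9757 genes at 0.0656, 0.255, −0.0921 and 0.165. Other settings were DESeq2 1.42.0, RLE scaling, no filter on low counts, other shares of spots, other distances, the capture area as a block, and leaving out each section or capture area 3. Leaving out granulosa-marker or luteal-marker spots was chosen after seeing the data. Genes were named by rule: called members of the androgen, signalling, hedgehog and transcription factor lists, the 12 highest and 8 lowest changes among called genes with at least 50 CPM and 1 direction in all sections, and the 2 most abundant members of every other list; other genes named, such as Hmgcs1, Abca1, Rbp4, Cables1 and the members of lists given as examples, were chosen after their values were seen. Scripts ran in Python 3.11.15 (numpy 2.4.6, pandas 2.3.3, scipy 1.17.1) and were tested on simulated data. The image scale factors were not used here. Some named genes are not reported here.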

Additional observations from a re-analysis of the deposited data

Results flagged for a closer look

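Of 64 groups of sections examined for a value far from the others, 3 had one, and chance gives about 1 in 20. The share of Cyp17a1-rich spots at the rim minus that of other spots was 49.7 percentage points in young section 3, which had 13 such spots, far above the other 5 sections. The log2 ratio of Foxo1 between Cyp17a1-rich and other spots (each CPM plus 1) was 2.57 in young section 3, above the other sections. The same ratio for Insl3 was −0.49 in aged section 4, where Insl3 was at 0 UMIs in the Cyp17a1-rich spots, below the other sections.

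The aged minus young difference differed between Cyp17a1-rich and other spots for 11 genes (edgeR interaction term). It was larger in the Cyp17a1-rich spots for S100a4 (1.71), Jchain (4.81), Tom1l1 (1.41), Hsd17b1 (1.70), Igha (3.15) and Ly6a (1.33), and smaller for Plbd1 (−1.59), Slc38a3 (−3.00), Cyp1b1 (−1.39), Tm7sf2 (−1.39) and Cited1 (−2.29). Jchain stood at 263 CPM in the Cyp17a1-rich spots of aged section 1, at 3.84 CPM in aged section 4 and at 0.637 to 2.97 CPM in young sections, and without aged section 1 its value was 1.26 (adjusted p = 0.922). Of the 11 genes 3 kept their call whichever section was left out and 8 did not.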

How the results depend on the processing

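Directions were compared only for named genes that were called in the main fit. None of these changed direction under RLE scaling or the loss of a section. None did so under DESeq2 either, which was run only against other spots and for age. Counts of called genes ran as follows. For Cyp17a1-rich against other spots (1672), 1087 genes passed with the choice made within sections and 534 without luteal-marker spots, and 1187 to 1569 with each section left out. Against Hsd17b7-rich spots (2582) the top 5% of spots gave 1594, and 1822 to 2214 passed with each section left out. Against Agt-rich spots (291) no filter on low counts gave 463, leaving out capture area 3 gave 174, and single sections gave 159 to 259. For near against away (43), no filter gave 66, the choice within sections 22, 1 spacing 129, leaving out granulosa-marker spots 4 and single sections 0 to 54. For age (55), no filter gave 264, the capture area as replicate block 147, the top 5% 34, the choice within sections 0, leaving out granulosa-marker spots 1 and single sections 8 to 116. For the interaction (11), no filter gave 108, the top 12% 36, the top 5% 18, the choice within sections 0 and single sections 10 to 29. The cause of these shifts was not tested. Paired within capture areas, the share of Cyp17a1-rich spots differed by −2.38 percentage points (exact sign-flip permutation p = 0.500), and −5.08 to 0.924 with each section left out. With the choice within sections, adjacency and closeness to granulosa-marker spots passed (28.9 and 25.2 percentage points). That choice takes in spots low in Cyp17a1 in aged sections 2 and 3. The rim difference turned to −6.33 with the top 5% and ran from −7.09 to 6.56 with each section left out. Without granulosa-marker spots Prkar2b turned to −0.045 in the age comparison, and Gja1 (−0.088) and Nr5a2 (−0.12) turned against other spots. Of results of single named genes under these settings, 801 of 880 against other spots, 632 of 653 against Hsd17b7-rich, 368 of 414 against Agt-rich spots, 181 of 282 near against away, 237 of 304 for age and 89 of 132 for the interaction kept their call. With 2 aged sections, or 1 when one was left out, the lone section was assumed to vary like the others.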
